A study of Homo sapiens with 24 samples.

Results

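The regions described here increased in chromatin accessibility after 8 h of CDK9 inhibition in OCI-LY3 cells and appeared in none of the 4 VAL lists. They were chosen by measured accessibility: the authors' list of regions increased in OCI-LY3 at 8 h held 4367 entries, and 1951 of these had coordinates found in no VAL list of either time or direction. The 8 deposited lists together held 26369 distinct regions, of which 16.6% were in the OCI-LY3 8 h increased list. The remaining entries of that list were 2381 regions that also increased in VAL, called shared opened regions here, and 35 regions that decreased in VAL. The authors merged the peaks of all samples before testing, so listed regions with unequal coordinates could not overlap. The choice of equal coordinates or of any overlap therefore had to give the same set.

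OCI-LY3 and VAL are established diffuse large B-cell lymphoma (DLBCL) lines. Both were given 30 nM AZD4573, a selective CDK9 inhibitor (CDK9i), and sampled at 0, 3 and 8 h by ATAC-seq, in which a transposase inserts adapters into open DNA. Each of the 6 groups had 4 libraries, 2 made by the standard protocol from 50000 cells and 2 by Fast-ATAC, labelled as 5000 cells. The 0 h libraries of each line were the control for both later times, and the deposited lists name that control DMSO, the vehicle. The submitters describe OCI-LY3 as a germinal centre line and VAL as an activated B-cell line, whereas the lines are generally classified the other way round. Each group is a single line. The files hold coordinates only, so no level, depth, fold change or spread between libraries could be given, and the values of regions just inside and just outside the authors' threshold are not shown. A region absent from the VAL lists was not called in VAL, and a difference between the lines at that region was not tested.

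CDK9 is the kinase of P-TEFb, which phosphorylates RNA polymerase II and its pausing factors and so lets paused polymerase move into the gene body. Promoters are the stretches around transcription start sites (TSS), often rich in CpG and bound by SP and KLF factors, whereas distal regions such as enhancers lie away from a TSS and carry sites for the factors that define a cell type. In B cells one such site is the octamer, bound by OCT1 and OCT2 with the B-cell co-activator OCA-B, and found in front of immunoglobulin variable genes.

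The sequences below carry the octamer, NF-kB and AP-1 matches that the results refer to. All are read from the plus strand of GRCh37 (hg19), 5′ to 3′, with the match in capitals, and none overlaps an annotated exon. The first set shows the octamer in front of 5 immunoglobulin kappa variable (IGKV) genes whose start lay within 1 kb of one of the 1951 regions. The letters are ATGCAAAT, or ATTTGCAT where the site lies on the minus strand.
IGKV2-10, chr2:89320254-89320313: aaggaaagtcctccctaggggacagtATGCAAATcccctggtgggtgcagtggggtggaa
IGKV1-27, chr2:89513445-89513504: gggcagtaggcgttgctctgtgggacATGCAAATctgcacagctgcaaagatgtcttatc
IGKV2-30, chr2:89545122-89545181: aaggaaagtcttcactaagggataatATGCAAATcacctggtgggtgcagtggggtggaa
IGKV2D-40, chr2:89890435-89890494: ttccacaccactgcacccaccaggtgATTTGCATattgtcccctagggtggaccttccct
IGKV2D-10, chr2:90218599-90218658: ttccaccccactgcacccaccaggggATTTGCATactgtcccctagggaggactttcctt

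The second set shows octamers at a promoter and in distal regions nearest to genes of B-cell and NF-kB biology. HLA-DRA encodes the alpha chain of the class II molecule HLA-DR, TNFAIP3 the NF-kB inhibitor A20, FOXO1 and KLF13 transcription factors, and MEF2B a factor often mutated in lymphoma.
HLA-DRA, promoter, chr6:32407586-32407645: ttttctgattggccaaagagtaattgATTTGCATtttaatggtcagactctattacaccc
TNFAIP3, distal, chr6:138271870-138271929: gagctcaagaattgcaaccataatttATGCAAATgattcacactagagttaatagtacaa
FOXO1, distal, chr13:41091860-41091919: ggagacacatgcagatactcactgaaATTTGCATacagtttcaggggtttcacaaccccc
KLF13, distal, chr15:31599938-31599997: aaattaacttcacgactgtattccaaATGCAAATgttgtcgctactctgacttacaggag
MEF2B, distal, chr19:19266393-19266452: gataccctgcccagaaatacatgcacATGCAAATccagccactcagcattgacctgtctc

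The third set holds the 4 distal regions with an NF-kB or AP-1 match whose nearest coding start belonged to a gene of the lists used here. PIM1 is a serine/threonine kinase, BCL2L1 encodes the anti-apoptotic protein BCL-XL, MAML3 is a NOTCH co-activator and HLA-DRB1 encodes the beta chain of HLA-DR. The MAML3 region held an octamer as well.
PIM1, NF-kB, chr6:37123501-37123562: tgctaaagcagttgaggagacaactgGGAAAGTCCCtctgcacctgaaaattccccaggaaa
BCL2L1, NF-kB, chr20:30293791-30293852: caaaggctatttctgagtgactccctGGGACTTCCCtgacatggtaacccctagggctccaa
MAML3, AP-1, chr4:141077636-141077694: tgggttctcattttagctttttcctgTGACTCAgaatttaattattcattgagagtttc
MAML3, octamer, chr4:141077766-141077825: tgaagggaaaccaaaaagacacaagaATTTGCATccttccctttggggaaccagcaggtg
HLA-DRB1, AP-1, chr6:32577820-32577878: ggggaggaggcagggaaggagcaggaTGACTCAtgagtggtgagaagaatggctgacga

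Most of the regions opened only in OCI-LY3 lay away from promoters. Of the 1951, 449 (23.0%) had an edge within 1 kb of a GENCODE TSS and 1502 (77.0%) were distal, where 29.1% and 70.9% of all listed regions were. Among shared opened regions 1378 of 2381 (57.9%) were at promoters, an odds ratio of 0.218 (95% interval 0.191 to 0.249, adjusted p = 2.02e-121). Of 8539 regions opened only in VAL at 8 h, 3837 (44.9%) were at promoters, giving an odds ratio of 0.367 (0.327 to 0.411, adjusted p = 1.71e-74). In both comparisons the OCI-LY3-only promoter share was the lower one on 21 of 22 autosomes. Against the 2204 regions closed only in OCI-LY3, where 292 (13.2%) were at promoters, the share was higher, with an odds ratio of 1.96 (1.66 to 2.30, adjusted p = 2.41e-16), on 16 of 22 autosomes. All p-values on shares came from the two-sided exact test of Fisher with Benjamini-Hochberg adjustment. These tests count regions, which are not independent replicates, and they carry no spread between libraries.

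**Figure D1:**
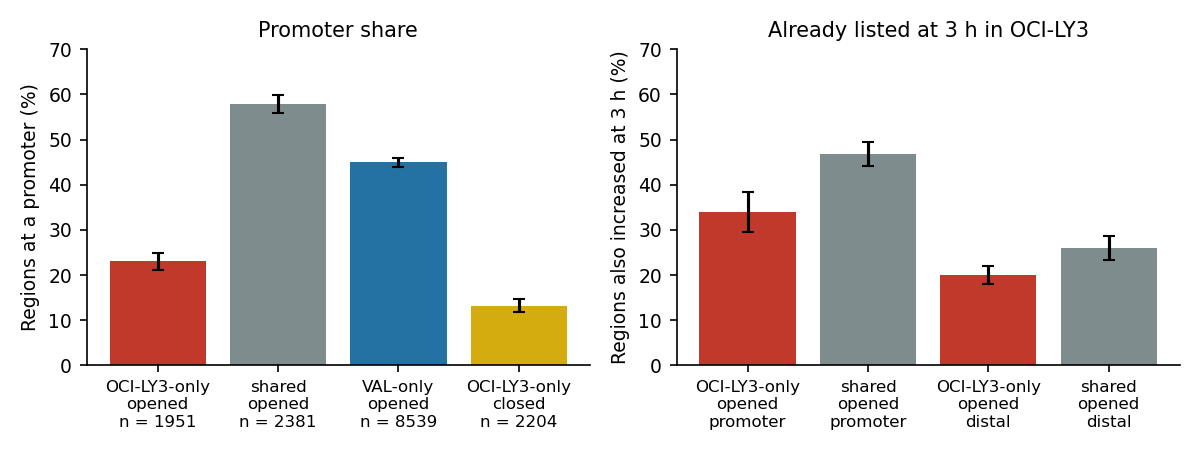
Left, the percentage of regions within 1 kb of a TSS in each of 4 groups; right, the percentage also increased at 3 h in OCI-LY3, by group and class. Bars are shares and lines are 95% Wilson intervals, which cover counting error over regions only; 23.0% of OCI-LY3-only opened regions were at promoters against 57.9% of shared opened regions.

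The distances to the nearest TSS ordered the 3 opened groups and the closed group in the same way. All listed regions departed from this order, with a higher promoter share than OCI-LY3-only opened regions (29.1% against 23.0%) but a slightly longer distance. The median distance from the region's edge was 7696 bp for OCI-LY3-only opened regions, 0 bp for shared opened regions and 2217 bp for VAL-only opened regions. It was 15910 bp for OCI-LY3-only closed regions and 7915 bp for all listed regions, close to the OCI-LY3-only opened value. Of the 1502 distal regions, 651 (43.3%) lay between 1 and 10 kb from a TSS, 803 (53.5%) between 10 and 100 kb, and 48 (3.20%) farther. Their midpoints fell in introns for 995 (66.2%), between genes for 452 (30.1%) and in exons for 55 (3.66%). The intron share was 63.9% in shared, 56.1% in VAL-only and 52.1% in closed distal regions.

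**Figure D2:**
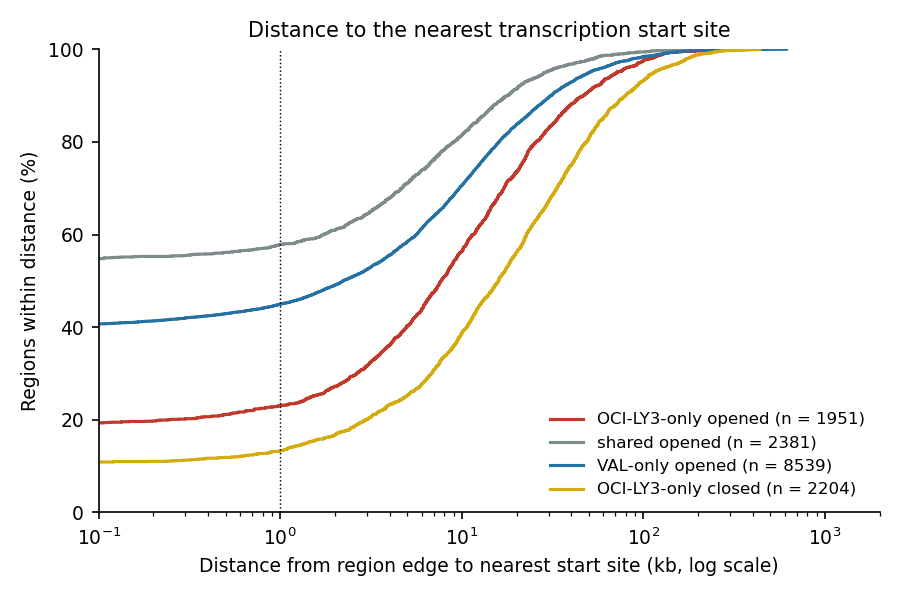
Cumulative percentage of regions (y axis) by distance from the region edge to the nearest TSS in kb (x axis, log scale), 1 line per group, with the dotted line at 1 kb. The OCI-LY3-only opened line runs below both other opened groups and above the closed regions, with medians of 7696, 0, 2217 and 15910 bp.

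The OCI-LY3-only regions were less GC-rich than the shared and VAL-only opened regions in both classes. In the central 200 bp, median GC content at promoters was 59.5% for OCI-LY3-only, 67.5% for shared and 69.5% for VAL-only regions. For distal regions the medians were 47.5%, 53.5% and 54.0%. OCI-LY3-only closed regions had medians of 59.8% at promoters and 43.5% at distal regions, and all listed regions 66.5% and 45.0%, so the OCI-LY3-only opened distal regions lay above both of these. CpG dinucleotides were also fewer at these promoters, with a median of 10 per 200 bp against 18 in shared and 19 in VAL-only promoters. Median width was 1540 bp at promoters (quartiles 1266 and 1814) and 1225 bp at distal regions (890.0 and 1551), with a full range of 397 to 2940 bp.

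At 3 h, 452 of the 1951 regions (23.2%, 95% Wilson interval 21.3 to 25.1) were already in the OCI-LY3 increased list, against 7.02% of all listed regions. None of the 1951 was listed as decreased at 3 h. The share was 33.9% at promoters (152 of 449) and 20.0% at distal regions (300 of 1502). Among shared opened regions it was 46.7% and 25.9%, higher in each class. The 3 h and 8 h comparisons used the same 0 h libraries, so these shares are given without a test.

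The regions were spread over every autosome and chromosome X, with most on chromosome 2 (189), chromosome 1 (186), chromosome 3 (138), chromosome 7 (135) and chromosome 6 (126). Chromosome 19 held 109 of them (5.59%), close to its 5.58% of all listed regions, but 486 of the shared opened regions (20.4%). The odds ratio for chromosome 19 was 0.232 (0.186 to 0.288, adjusted p = 3.89e-48). The 4 tested chromosomes were chosen because earlier results of these data showed them to hold mostly increased regions. Their p-values are therefore not those of chromosomes chosen beforehand. Chromosomes 16, 17 and 22 also held smaller shares of OCI-LY3-only than of shared regions. Their odds ratios were 0.383 (adjusted p = 7.31e-15), 0.247 (adjusted p = 1.12e-22) and 0.363 (adjusted p = 3.29e-06). Chromosome 2 held 9.69% of OCI-LY3-only and 2.86% of shared regions, a difference that was not among the 4 tested. Of all listed regions, chromosome 2 held 7.63%, chromosome 16 held 3.88%, chromosome 17 held 4.82% and chromosome 22 held 2.83%. On chromosomes 2, 16 and 17 the shared regions lay farther from these values than the OCI-LY3-only regions did, and on chromosome 22 the OCI-LY3-only regions lay farther.

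**Figure D3:**
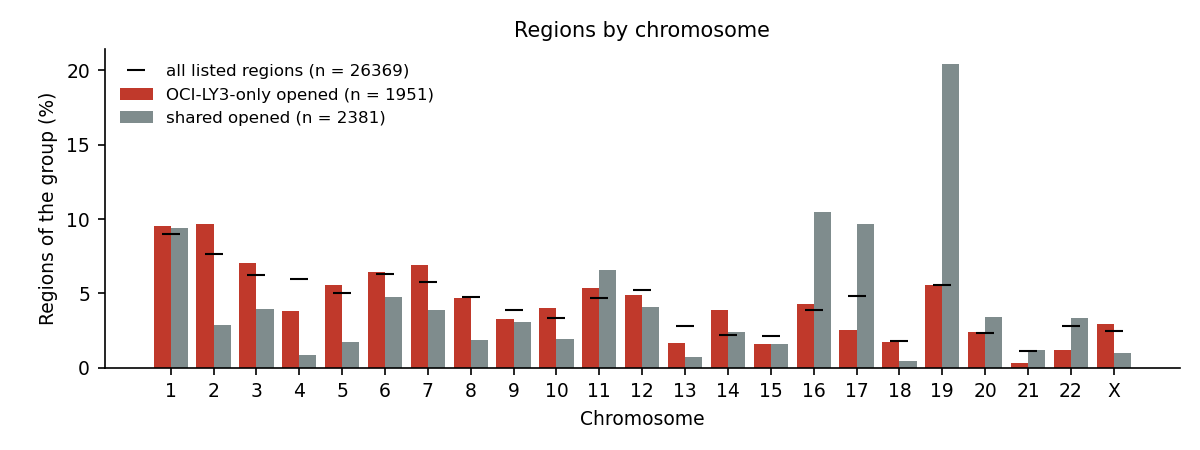
Percentage of each group's regions (y axis) on each chromosome (x axis); red bars, OCI-LY3-only opened; grey bars, shared opened; black ticks, all listed regions. Chromosome 19 held 20.4% of shared and 5.59% of OCI-LY3-only regions; 6 OCI-LY3-only regions on chromosome Y are not drawn.

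Few of the regions were clustered. Joining regions at most 10 kb apart gave 1832 loci, of which 1730 held 1 region, 90 held 2 and 12 held 3 or more. Of the 449 promoter regions, 87 (19.4%) had a region opened in VAL within 10 kb, compared with 47.2% of shared promoter regions. For distal regions the values were 259 of 1502 (17.2%) and 51.5%. A region closed in VAL lay within 10 kb of 120 distal OCI-LY3-only regions (7.99%) and of 1.30% of shared distal regions, while a region closed in OCI-LY3 at 8 h lay that near to 0.932% and 0.798%. These are descriptions without a test, and no share over all listed regions was computed. The 2 groups were themselves chosen by absence from or presence in the VAL lists. Their nearness to VAL regions is therefore not independent of that choice.

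Promoter regions were spread thinly over many genes. Of the 449, 368 contained a TSS, 88 had start sites on both strands within 1 kb, 311 were near a protein-coding start and 138 only near a start of another gene type. They lay at 365 of 20136 protein-coding genes (1.81%), while shared opened regions lay at 1521 genes (7.55%) and VAL-only regions at 3513 (17.4%). Another promoter region that opened in VAL was found for 23 of the 365 genes (6.30%), and another that closed in VAL for 1. Regions in any VAL list had been removed by the rule, so a gene could count only through a further promoter region. No matching share over all genes was computed, so these counts do not measure how specific the genes are to a line. The counts below are read against the 1.81% of all protein-coding genes, and no set test was run.

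In the NF-kB pathway, 4 of 42 genes (9.52%) had such a promoter region. IKBKE, a kinase of the innate immune branch, had a region of 2501 bp at chr1:206642905-206645405. NFKBIZ, an atypical nuclear inhibitor-of-kappa-B protein that is induced by NF-kB, had one of 2045 bp at chr3:101567577-101569621, also listed at 3 h. TNIP1, a partner of A20, had one of 1906 bp inside the gene at an alternative start, 5671 bp upstream of its canonical start, also listed at 3 h. RNF31, the catalytic subunit of the linear ubiquitin ligase complex, had one of 1864 bp, also listed at 3 h. Shared opened promoters covered 5 of the 42 genes (11.9%) and VAL-only promoters 11 (26.2%), each likewise above its share of all genes.

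Surface and signalling genes of B cells were present singly. CD72, an inhibitory co-receptor of the B-cell receptor, had the widest promoter region of all, 2922 bp at chr9:35617879-35620800. CR2, the complement receptor of the B-cell co-receptor complex, and INPP5D, the inositol phosphatase SHIP1, were the other members of the B-cell receptor list, 3 of 37 genes (8.11%). Among 40 B-cell and plasma cell transcription factors, 3 had a promoter region (7.50%): XBP1, the plasma cell and unfolded protein response factor, KLF13, and ZEB2. The ZEB2 and KLF13 regions lay at alternative starts, 64949 and 14516 bp downstream of the canonical ones. PIM2, a kinase induced by cytokines, was the only one of 38 JAK-STAT genes, BAK1, a pro-apoptotic effector, the only one of 21 BCL2 family genes, and CCR7, the lymph node homing receptor, the only one of 29 migration genes. PIM2 and BAK1 were listed at 3 h as well, and CCR7 was not.

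IL10 and IL19, interleukin genes that lie side by side, shared 1 region of 2912 bp at chr1:206943743-206946654, which accounts for both of the 2 genes counted among 76 cytokines and chemokines (2.63%). Antigen presentation genes numbered 3 of 31 (9.68%): B2M, the light chain of class I molecules, HLA-E, and HLA-DRA, whose octamer is printed above. HLA-DRA was listed at 3 h, and the other two were not. Shared opened promoters lay at 6 of the 31 antigen presentation genes (19.4%), 7 of the 37 B-cell receptor genes (18.9%) and 7 of the 40 B-cell factors (17.5%), against 7.55% of all genes. DNAJA1, an HSP40 co-chaperone, was the only one of 26 heat shock genes and was listed at 3 h.

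Zinc finger genes of chromosome 19, most of which encode repressors that bind repeats, gave the highest share of any of the 24 lists, 32 of 254 genes (12.6%) at 31 regions. Shared regions lay at 41 of the 254 (16.1%, against 7.55% of all genes) and VAL-only regions at 39 (15.4%, against 17.4%). Those also listed at 3 h numbered 17, namely ZNF101, ZNF14, ZNF253, ZNF737, ZNF66, ZNF614, ZNF600, ZNF28 and ZNF468 (1 region for both), ZNF320, ZNF665, ZNF845, ZNF773, ZNF550, ZNF551, ZNF586 and ZNF544. The widest was the ZNF550 region, 1814 bp. Cytosolic ribosomal protein genes had 5 of 89 (5.62%), namely RPL10, RPL14, RPL17, RPL31 and RPS25, where shared opened regions lay at 31 (34.8%). Replication-dependent histone genes had 5 of 73 (6.85%) at 3 regions: H2BC18 with H3C13, H2BC9 with H3C7, and H3C10. No shared opened region lay at a histone promoter of this list, and 9 of the 73 genes had a VAL-only one. Histone and zinc finger genes belong to multigene families, and the authors removed reads that did not align uniquely, so only uniquely placed reads count at these regions.

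No gene had such a promoter region in 12 lists. These were the TNF superfamily (0 of 45), AP-1 and CREB/ATF factors (0 of 30), immediate early genes (0 of 38), interferon response (0 of 47), the p53 axis (0 of 30), P-TEFb and elongation factors (0 of 38), Mediator (0 of 30), chromatin regulators mutated in DLBCL (0 of 25), the NOTCH pathway (0 of 28) and the T and NK cell (0 of 27) and myeloid (0 of 25) markers, and the genes named in the study (0 of 19), a list that is not independent of these samples. At the 1.81% of all genes, lists of this length would hold about 1 gene or none, so a count of 0 does not set any of them apart.

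The widest promoter regions after CD72 and IL10/IL19 were those of H3C7 (2890 bp), IFT80 (2865 bp), an intraflagellar transport gene, and SLC43A1 (2858 bp), an amino acid transporter gene. The last 2 were listed at 3 h and the first 3 were not. The midpoint of the IFT80 region lay within SMC4, 831 bp upstream of the IFT80 start.

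Most listed regions of the immunoglobulin kappa locus were OCI-LY3-only opened, an observation made after the values were seen. Between chr2:89156674-90274235, 19 regions appeared in any of the 8 lists, and 15 of them were OCI-LY3-only opened, 1 was shared, 3 were VAL-only and 0 were OCI-LY3-only closed. Of the 15, 13 lay within 1 kb of the annotated start of an IGKV gene, out of 76 such starts in the locus. The 13 genes were IGKV1-8, IGKV2-10, IGKV3-11, IGKV2-26, IGKV1-27, IGKV2-29, IGKV2-30, IGKV2D-40, IGKV2D-26, IGKV3D-11, IGKV2D-10, IGKV1D-43 and IGKV1D-8. They fell on both the proximal and the distal, inverted copy of the locus, and 4 pairs of copies were both present: IGKV1-8 with IGKV1D-8, IGKV2-10 with IGKV2D-10, IGKV3-11 with IGKV3D-11, and IGKV2-26 with IGKV2D-26. IGKV1D-43 and IGKV1D-8 were also increased at 3 h. The copies resemble each other closely, and as reads without a unique alignment were removed, these regions rest on uniquely placed reads.

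An octamer was found in 7 of the 15 regions over their full length. In the 5 printed above, its centre lay 101 bp (IGKV2-10), 62 bp (IGKV1-27), 73 bp (IGKV2-30), 136 bp (IGKV2D-40) and 101 bp (IGKV2D-10) upstream of the annotated start, and in IGKV1D-43 and IGKV1D-8 it lay 90 bp downstream. Octamers were not confined to the OCI-LY3-only regions of the locus. The shared IGKV1D-27 region and the VAL-only IGKV1-6 region held 1 each, and the VAL-only IGKV1D-16 and IGKV1D-42 regions held 0. Over all 1951 regions, 298 (15.3%) held an octamer in their full length, against 12.3% of all listed regions. The other immunoglobulin loci differed in make-up. The heavy chain locus held 1 OCI-LY3-only and 10 VAL-only opened regions of 17 listed, and the lambda locus held 6 and 26 of 41. Of all 26369 listed regions, 1951 were OCI-LY3-only and 8539 VAL-only opened. These locus counts were not tested.

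**Figure D4:**
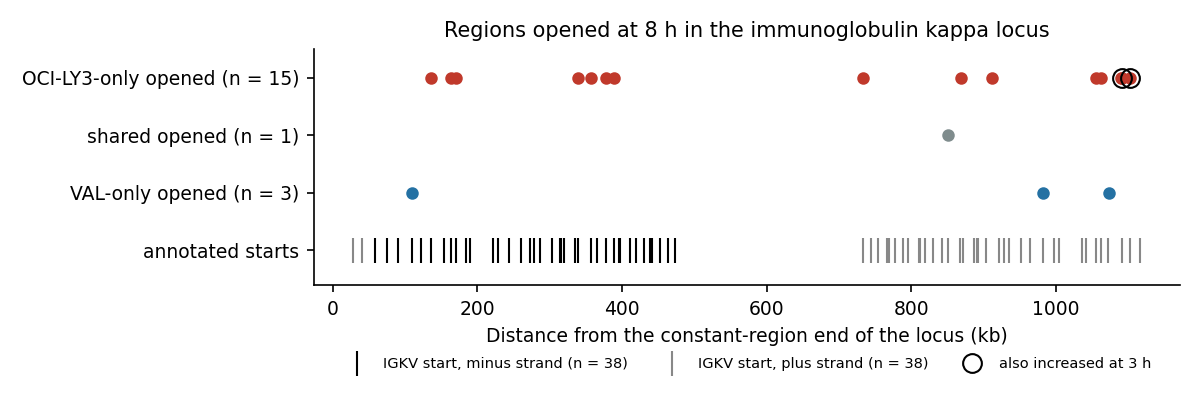
Position of regions opened at 8 h along the immunoglobulin kappa locus, as distance in kb from the constant-region end (x axis), with 1 row per group and the annotated IGKV starts below; open circles mark regions also increased at 3 h. The 15 OCI-LY3-only regions fall on both copies of the variable gene cluster, against 1 shared and 3 VAL-only regions.

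Motif matches separated the regions from the other opened groups mainly by fewer SP/KLF sites. Searches covered 18 consensus motifs on both strands in the central 200 bp, and matches of different motifs could share bases. At promoters the SP/KLF letters GGGCGG were present in 30.3% of OCI-LY3-only regions, 53.8% of shared and 56.1% of VAL-only regions, and 47.4% of all listed promoter regions. The odds ratios were 0.373 (0.297 to 0.468, adjusted p = 6.79e-17) and 0.341 (0.276 to 0.421, adjusted p = 3.72e-24). At distal regions the shares were 4.66%, 12.5% and 16.1%, and 7.59% of all listed distal regions. There the odds ratios were 0.345 (0.254 to 0.467, adjusted p = 3.36e-11) and 0.256 (0.199 to 0.330, adjusted p = 6.95e-34). The share was the lower one on at least 20 of 22 autosomes in each of the 4 comparisons. In windows of 40 to 60% GC alone the 4 odds ratios were 0.354 (shared) and 0.439 (VAL-only) at promoters and 0.468 and 0.478 at distal regions, and each still passed. The shares in OCI-LY3-only closed regions, 33.9% at promoters and 5.28% at distal regions, were near those of the OCI-LY3-only opened regions, and that difference was not tested.

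The octamer ATGCAAAT was more frequent in OCI-LY3-only than in VAL-only distal regions. It was found in 61 of 1502 (4.06%) and 69 of 4702 (1.47%), an odds ratio of 2.84 (2.01 to 4.03, adjusted p = 1.96e-07), and higher on 17 of 22 autosomes. The share in shared opened distal regions was 4.09%, an odds ratio of 0.989 (0.662 to 1.48), in closed regions 4.08% and in all listed distal regions 3.47%. The OCI-LY3-only share was thus near that of the listed regions as a whole, and the VAL-only share was below it. None of the 61 lay in the kappa locus. At promoters the octamer was found in 9 of 449 (2.00%), 0.581% of shared and 0.756% of VAL-only regions, and neither difference passed (adjusted p = 0.0844 and 0.0574).

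CTCF, the insulator protein, had a match with at most 1 mismatch in 1.40% of OCI-LY3-only and 4.25% of VAL-only distal regions (odds ratio 0.326, 0.208 to 0.510, adjusted p = 1.96e-07), against 4.72% of all listed distal regions. The share in shared distal regions was 2.29%, and that difference did not pass (odds ratio 0.606, 0.335 to 1.09, adjusted p = 0.308). With windows of 40 to 60% GC alone the comparison with VAL-only regions no longer passed (odds ratio 0.539, adjusted p = 0.0671). The E-box CAGCTG, bound by E2A, was more frequent than in VAL-only regions, at 16.7% against 11.7% of promoters (odds ratio 1.52, adjusted p = 0.0236) and 20.2% against 16.9% of distal regions (odds ratio 1.24, adjusted p = 0.0236). The corresponding shares of all listed regions were 11.9% and 13.8%. Against shared regions neither class passed, and the distal share lay the other way: 16.7% against 11.8% of promoters (odds ratio 1.51, adjusted p = 0.0655) and 20.2% against 23.5% of distal regions (odds ratio 0.821, 0.677 to 0.996, adjusted p = 0.170). The promoter difference from VAL-only regions no longer passed with 400 bp windows (odds ratio 1.25, adjusted p = 0.132) or in windows of 40 to 60% GC (odds ratio 1.80, adjusted p = 0.0610).

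Matches to EBF1 (TCCCNNGGG), an early B-cell factor, were fewer than in shared distal regions (4.99% against 9.17%, odds ratio 0.521, adjusted p = 0.000669) and fewer than in VAL-only promoters (5.12% against 8.63%, odds ratio 0.583, adjusted p = 0.0385). The share of all listed regions was 3.92% for distal regions and 7.56% for promoters. Neither EBF1 difference passed in windows of 40 to 60% GC (adjusted p = 0.619 and 0.743). The MYC E-box CACGTG was found in 3.40% of distal regions against 5.19% in VAL-only regions (odds ratio 0.647, adjusted p = 0.0236) and 3.15% of all listed ones, and NRF1 in 0.133% against 0.997% in shared distal regions (odds ratio 0.158, adjusted p = 0.0441) and 0.337% of all listed ones. With windows of 40 to 60% GC neither passed, the MYC E-box at an odds ratio of 0.744 (adjusted p = 0.433) and NRF1 at 0.122 (adjusted p = 0.0650). NRF1 also did not pass without chromosome 19 (odds ratio 0.159, adjusted p = 0.115).

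Sites of inducible immune factors did not separate the 3 opened groups after adjustment. NF-kB matches were found in 13 distal regions (0.866%), against 0.897% in shared, 0.744% in VAL-only and 0.492% in all listed distal regions, with odds ratios of 0.949 (0.412 to 2.18) and 1.19 (0.635 to 2.24). AP-1 (TGAGTCA) was found in 3.60% against 4.59%, 3.89% and 4.36%. The interferon element was found in 2.40% of distal regions against 1.99% in shared, 2.32% in VAL-only and 4.58% in all listed ones. In OCI-LY3-only closed distal regions, which were not among the motif tests, AP-1 was at 7.22% (95% Wilson interval 6.14 to 8.47) and the interferon element at 9.15% (7.94 to 10.5). At promoters, NF-kB was at 1.11% against 0.435% in shared and 0.287% in VAL-only regions (adjusted p = 0.337 and 0.0730), and 0.364% of all listed promoter regions. The interferon element was at 2.23% of promoters against 0.726% in shared regions (adjusted p = 0.0785) and PU.1 (GAGGAAGT) at 2.90% against 1.02% (adjusted p = 0.0655). In VAL-only promoters they were at 0.938% and 1.46% (adjusted p = 0.0797 and 0.0857), in OCI-LY3-only closed promoters at 4.45% and 2.05% and in all listed promoters at 1.68% and 1.60%. In all, 4 of 36 tests passed against shared regions, each with the lower share in OCI-LY3-only regions, and 8 of 36 against VAL-only regions, 3 higher and 5 lower.

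**Figure D5:**
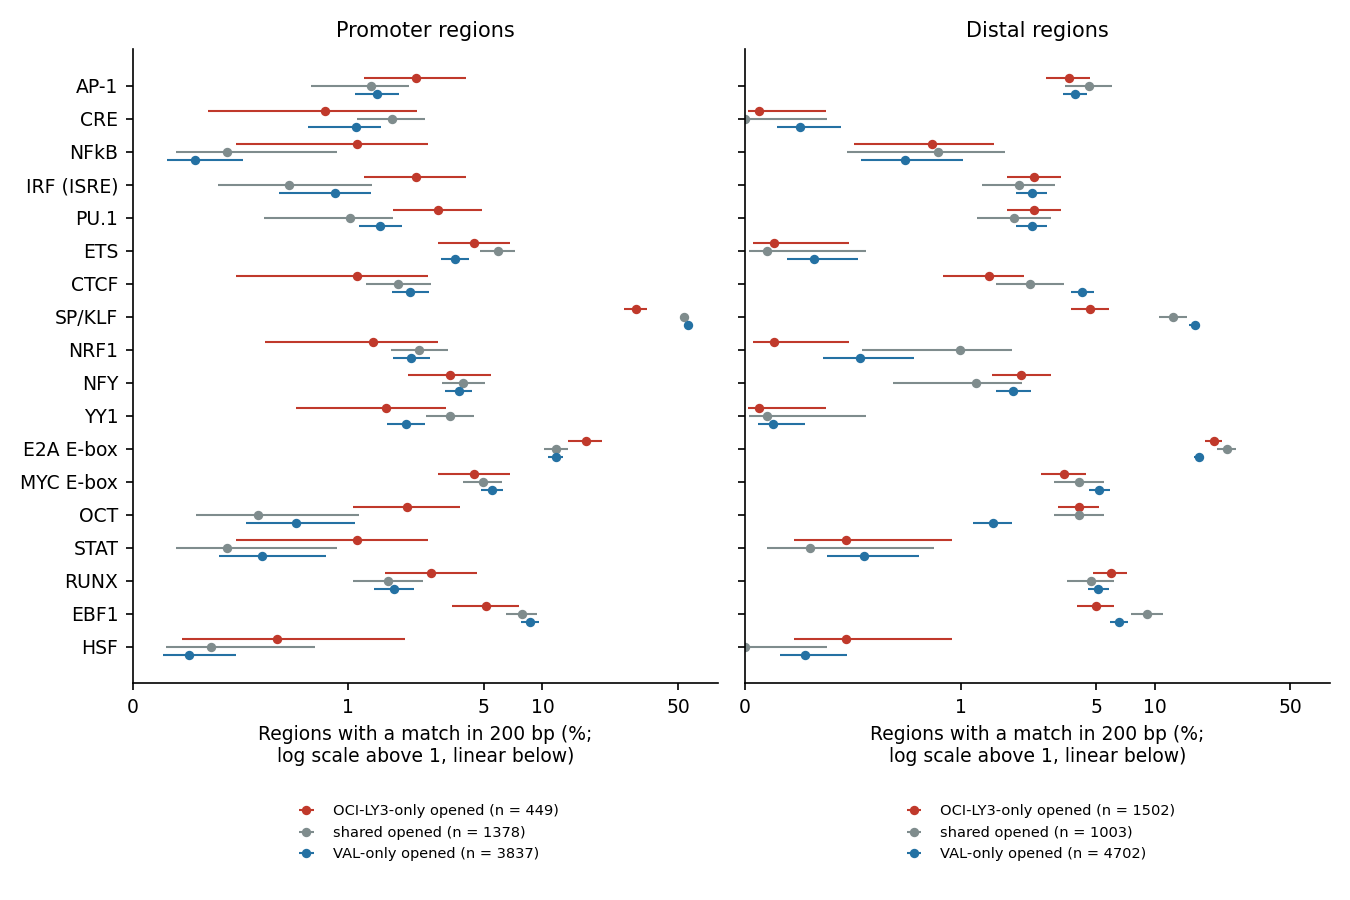
Percentage of regions with at least 1 match in the central 200 bp (x axis, linear to 1 and log above) for 18 motifs (y axis), promoters left and distal regions right. Points are shares in OCI-LY3-only (red), shared (grey) and VAL-only (blue) opened regions with 95% Wilson intervals over regions; SP/KLF was lowest in OCI-LY3-only regions in both classes, and the octamer in distal regions was at 4.06%, 4.09% and 1.47%.

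Distal regions were assigned to the protein-coding gene with the nearest start, which names a neighbour and not a target, and which favours genes in wide gene-poor stretches. The 1502 regions were nearest to 1265 genes, 6.28% of all protein-coding genes. Of the 40 B-cell and plasma cell transcription factors, 17 (42.5%) were nearest to at least 1 region, 23 regions in all. The factors were BACH2, BCL11A, EBF1, ETV6, FOXO1, FOXP1, ID2, ID3, IRF4, KLF13, MEF2B, MEF2C, MYBL1, PAX5, POU2AF1, POU2F1 and PRDM1. High shares were also seen for the same list in shared (27.5%, against 4.14% of all genes), VAL-only (45.0%, against 16.7%) and OCI-LY3-only closed distal regions (35.0%, against 7.21%).

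Among these, POU2AF1, which encodes the octamer co-activator OCA-B, had an intronic region of 1426 bp at chr11:111237907-111239332, 11380 bp downstream of its start. POU2F1, which encodes OCT1, had one of 1489 bp at chr1:167177394-167178882, 11985 bp upstream. FOXO1 was nearest to 3 regions, 2 of them in its intron, and MEF2B and FOXP1 held 2 intronic regions each. BACH2, a repressor of plasma cell differentiation, held 2 intronic regions, 1 of them listed at 3 h. PRDM1, the plasma cell regulator BLIMP1, and IRF4 had regions 190037 and 26261 bp upstream, neither listed at 3 h.

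In the NF-kB list, 5 of 42 genes (11.9%) were nearest to 7 distal regions. TNIP1 had 3, of which 1 in its intron, 12029 bp downstream of the canonical start, was listed at 3 h along with its promoter region. The TNFAIP3 region, 2000 bp wide and 83553 bp downstream, was listed at 3 h and holds the octamer printed above. BCL3, TNIP3 and IKBKB had 1 each. Against the 6.28% of all genes, other lists gave 6 of the 19 genes named in the study (31.6%, a list not independent of these samples), 7 of 25 chromatin regulators (28.0%, among them ARID1B, EZH2 and KMT2A), 4 of 28 NOTCH genes (14.3%), 3 of 21 BCL2 family genes (14.3%), 5 of 38 JAK-STAT genes (13.2%), 5 of 38 immediate early genes (13.2%) 4 of 29 migration genes (13.8%) and 4 of 37 B-cell receptor genes (10.8%). In shared distal regions, against 4.14% of all genes, the NF-kB list was at 14.3%, the genes named in the study at 31.6%, immediate early genes at 18.4%, B-cell receptor genes at 16.2%, JAK-STAT genes at 13.2%, migration genes at 10.3% and the BCL2 family at 9.52%. In closed distal regions, against 7.21%, the NF-kB list, the BCL2 family and NOTCH genes were at 14.3%, migration genes at 13.8% and immediate early genes at 23.7%. Chromatin regulators (8.00%) and B-cell receptor genes (8.11%) were near that value, and JAK-STAT genes (2.63%) and the genes named in the study (5.26%) below it. VAL-only distal regions were nearest to 11 of the 25 chromatin regulators and 12 of the 28 NOTCH genes (42.9%), against 16.7% of all genes. Lists below the 6.28% were the TNF superfamily (2.22%), P-TEFb and elongation factors (2.63%), Mediator (3.33%), ribosomal proteins (3.37%), heat shock genes (3.85%) and chromosome 19 zinc finger genes (0.787%). The MAML3 region, 2421 bp upstream, the BCL2L1 intron region and 1 of 2 regions in DTX1, a NOTCH target, were listed at 3 h, and the PIM1 region was not. Myeloid markers and histones had 0 regions, and T and NK cell markers 1, at LEF1.

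Several genes held runs of regions, mostly distal ones. ITPKB, an inositol trisphosphate kinase that acts in lymphocyte receptor signalling, held 6 regions inside the gene, between 836 and 1861 bp wide, and 5 of them were listed at 3 h. It was nearest to 0 shared, 1 VAL-only and 0 closed regions. RAP1B, a small GTPase of cell adhesion, held the run with the most regions, 5 intronic ones within 19615 bp at chr12:69015395-69035009, of which 2 were listed at 3 h. RAP1B was nearest to 0 shared and 1 VAL-only region. IQSEC1, an exchange factor for ARF GTPases, was nearest to 5 regions, beside 1 shared and 4 VAL-only ones. DUSP22, a dual-specificity phosphatase, was nearest to 5, beside 0 shared and 1 VAL-only region. UQCRFS1, a subunit of respiratory complex III, was nearest to 6 regions, 1 at its promoter and the others up to 743758 bp away, but to more VAL-only regions, 9. RPIA and RP11-685N3.1, nearest to 9 each, flank the kappa locus, which accounts for most of them. VAL-only regions nearest to these 2 genes numbered 1 and 11.

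Other long runs were 4 regions within CD82, a tetraspanin (chr11:44617754-44643552), 4 around SIT1, an adaptor of lymphocyte signalling, and CCDC107 (chr9:35634578-35659093), of which 3 were at promoters, and 4 at NLRP11 and NLRP4 (chr19:56319206-56350948), of which 2 were at promoters. Of the runs of 3, all 3 regions were listed at 3 h in the run inside ITPKB and in the run at AGAP3 and TMUB1, the latter all at promoters. The widest distal regions were in introns of MICAL3 (2940 bp) and CDCA7L (2768 bp), and between genes nearest to KRT8 (2899 bp) and TMCC2 (2866 bp), with 1 more of 2808 bp nearest to CLXN. None of these 5 was listed at 3 h.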

How the data were processed

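ATAC-seq libraries of OCI-LY3 and VAL cells were processed by the authors, whose notes name Bowtie2, MACS2, bedtools, DESeq2 and hg19. Reads without a unique alignment were removed, the others were counted over a merged peak set, and the authors used DESeq2 to set each treated time against the 0 h control of its line, named DMSO in the lists. The deposited lists give region coordinates only. There were 0 columns of per-sample values, depth is unknown, and intervals cover counting error over regions only.

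Regions were compared by equal coordinates. Annotation was GENCODE 44 lifted to GRCh37, using basic transcripts, and sequence was GRCh37, within whose chromosomes all regions lay. Promoters had an edge within 1000 bp of a TSS. Motifs were consensus sequences with 0 mismatches (CTCF 1) in the central 200 bp. Differences between shares were tested with the two-sided exact test of Fisher. Odds ratios had 0.5 added to each cell and 95% Wald intervals, and Benjamini-Hochberg adjustment covered 3 promoter tests, 36 motif tests per comparison and 4 chromosomes, with a threshold of 0.05. Software was pysam 0.24.0, scipy 1.17.1, pandas 2.3.3 and numpy 2.4.6 under Python 3.11.15. The scripts were tested on simulated data.

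The members, the lists and the tested chromosomes were chosen with earlier results of these data known. Named were listed genes with a promoter region (for long lists, those at 3 h and the widest), the genes nearest to most regions with ties, the runs with most regions at gaps of at most 10 kb, the 5 widest regions of each class, and distal regions with an NF-kB or AP-1 match nearest to a listed gene. The kappa locus, the octamer sequences outside HLA-DRA, and the other distal neighbours were chosen after their values were seen.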

Additional observations from a re-analysis of the deposited data

Results flagged for a closer look

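Regions opened in a single line differed between the lines in promoter share and in 8 of 36 motif tests, of which the octamer and CTCF in distal regions are given here. The promoter share had an odds ratio of 0.367 for OCI-LY3-only against VAL-only regions, with 23.0% and 44.9% at promoters. In distal regions the octamer had an odds ratio of 2.84 (4.06% against 1.47%) and CTCF an odds ratio of 0.326 (1.40% against 4.25%). The CTCF difference did not pass in windows of 40 to 60% GC (odds ratio 0.539, adjusted p = 0.0671), where the octamer did. Against shared distal regions neither passed, with odds ratios of 0.989 for the octamer and 0.606 for CTCF. GC content differed alongside, with a median of 47.5% against 54.0% in distal regions.

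A further 35 of the 4367 regions that increased in OCI-LY3 at 8 h decreased in VAL, that is, they moved in opposite directions in the 2 lines. Of all 26369 listed regions, 9260 were in the VAL 8 h decreased list, and the difference was not tested. Of the 35 regions, 33 were distal, against 70.9% of all listed regions, and 9 were also increased at 3 h in OCI-LY3, against 7.02%. Chromosome 19 held 0 of them and 5.58% of all listed regions, so a count of 0 does not set the 35 apart. The median GC content was 39.5%, against 49.5% in all listed regions.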

How the results depend on the processing

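No paired analysis was possible because the deposited lists hold no value per library. For the same reason no library could be left out. The number of OCI-LY3-only regions was 2006 against the VAL 8 h lists alone, 1471 with no VAL region within 10 kb and 1832 after merging. With any overlap it was 1951, an outcome fixed in advance by the merged peak set. The promoter shares kept their direction and passed under all 6 alternatives of each comparison. Their odds ratios ranged from 0.173 to 0.240 against shared, 0.318 to 0.388 against VAL-only and 1.80 to 2.34 against closed regions. The number of motif tests that passed depended on the window. Against shared regions it was 4 in the main setting, 16 over the whole region, 10 with 400 bp and 2 with windows of 40 to 60% GC, which also hold fewer regions. Against VAL-only regions it was 8, 18 over the whole region and 4 with windows of 40 to 60% GC. The cause of the rise over whole regions was not tested. SP/KLF in both classes and the distal octamer passed under every motif alternative, the octamer also without the kappa locus, a setting added after seeing the data (odds ratio 2.85). Of 86 alternatives, 73 kept direction and side, 8 single-motif results no longer passed, 5 counts moved, and 0 reversed. The 73 include the any-overlap settings, which could not differ from the main setting. Depth, and so the smallest change that could be called in either line, is unknown. Repeats were not analysed here.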
